A study of Homo sapiens with 30 samples.

Results

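Expression of 9 genes that encode cell adhesion and scaffold proteins of the synapse was followed in LNCaP, a long-established cell line from a human prostate cancer whose growth depends on androgen. The genes are SLITRK3, SLITRK5, SLITRK6, CNTN5, NLGN1, PCDH7, LRRC7, NTNG1 and ADGRL2, which are 9 of the 58735 genes measured. They were chosen by measured values, because their levels differed between cells rescued with mTOR and cells given an empty vector, so that difference is described below without a test. All 9 passed the filter on low counts, SLITRK5 and CNTN5 through the rescued cells alone, since their counts with the empty vector were near 0.

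Every group of cells carried an shRNA against mTOR, the kinase that controls growth within the mTOR complexes, and received a rescue construct from an inducible system. One line received only the empty vector (EV) and a second the unmodified wild-type protein (WT). In the NES line mTOR was joined to a nuclear export signal, and in the NLS line to a signal for nuclear localization. In the NLSKD line the nuclear form also carried the D2357E change, labelled kinase dead. Whether a line was 1 clone or a pool is not given in the sources used here. Each construct was represented by 1 line, so the construct cannot be told apart from other differences between the lines. After 48 h without androgen in medium with 2% charcoal-stripped serum, cells received ethanol (vehicle, 0.1% in the medium) or the synthetic androgen R1881 at 10 nM over 24 h. Each of the 10 groups had 3 libraries, 30 in all, and nothing in the labels says that they came from separate cultures, so each p-value measures the spread between these libraries, which may be technical.

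Synaptic adhesion proteins sit on either side of the cleft between neurons and bind each other across it. SLITRK proteins, neuroligins and latrophilins pair with presynaptic receptor phosphatases, neurexins and teneurins, and inside the postsynaptic cell scaffold proteins such as the LRRC7 product hold receptors and kinases in place. Many of these genes are also transcribed outside the nervous system. Androgen drives the luminal prostate programme in LNCaP cells, and R1881 stands in for the natural hormone.

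Library totals ran from 21435364 to 61762468 counts, and the deepest library after NES R1881 replicate 1 was NLS R1881 replicate 1 with 39487706 counts. In the 6 EV libraries MTOR itself ran from 20.3 to 29.7 CPM under vehicle and from 55.4 to 73.9 CPM under R1881. CPM stands for counts per 1e+06 counts of the library, scaled with TMM factors. MTOR ran from 596 to 7593 CPM in the 24 rescue libraries, with the highest group means in NES. All 10 luminal prostate markers on a fixed list were detected in each of the 10 groups (KLK3 at a median of 1562 CPM). Of the 11 neuron markers, ELAVL4 had 0 counts in 30 of 30 libraries, STMN2 in 29 and SNAP25 in 28, and the summed level of the 11 ran from 0.265 to 3.42 FPKM (a level scaled for gene length and library size) with MAP2 making up most of the top value. Of the 9 neuroendocrine markers, INSM1 had 0 counts in 29 libraries, and their summed level ran from 5.67 to 23.9 FPKM, carried by DLL3 and ENO2.

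The shared direction implied by calling these genes raised by mTOR rescue held for part of the group. In 5 genes (SLITRK5, SLITRK6, PCDH7, LRRC7 and ADGRL2) every rescue library was above every EV library of the same treatment. CNTN5 was separated in the same way in 7 of the 8 comparisons and overlapped in NES under R1881. SLITRK3 was higher than EV in WT and NLSKD but not in NES, NLGN1 was lower in WT and NES, and NTNG1 was lower in every rescue library than in every EV library of the same treatment. In these bulk samples fewer cells with a transcript and less transcript per cell cannot be told apart.

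Among all 18296 tested genes, libraries that do not overlap were common, and the choice of the 9 genes used these contrasts, so the counts are given for orientation only. Under vehicle, WT had 7 of the 9 genes higher and 2 lower than EV without overlap, where 10.9% of all tested genes were higher and 12.5% lower. NES had 6 higher and 2 lower (6.74% and 8.88% of all genes), NLS 6 and 1 (8.27% and 9.83%), and NLSKD 8 and 1 (7.82% and 9.9%). Under R1881 the counts were 7 and 2 in WT (13.2% and 13.2%), 5 and 2 in NES (15% and 12.7%), 7 and 1 in NLS (8.54% and 9.14%), and 8 and 1 in NLSKD (10.3% and 10.6%). The 8 comparisons reuse the same EV libraries, so they are not independent of each other.

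**Figure D1:**
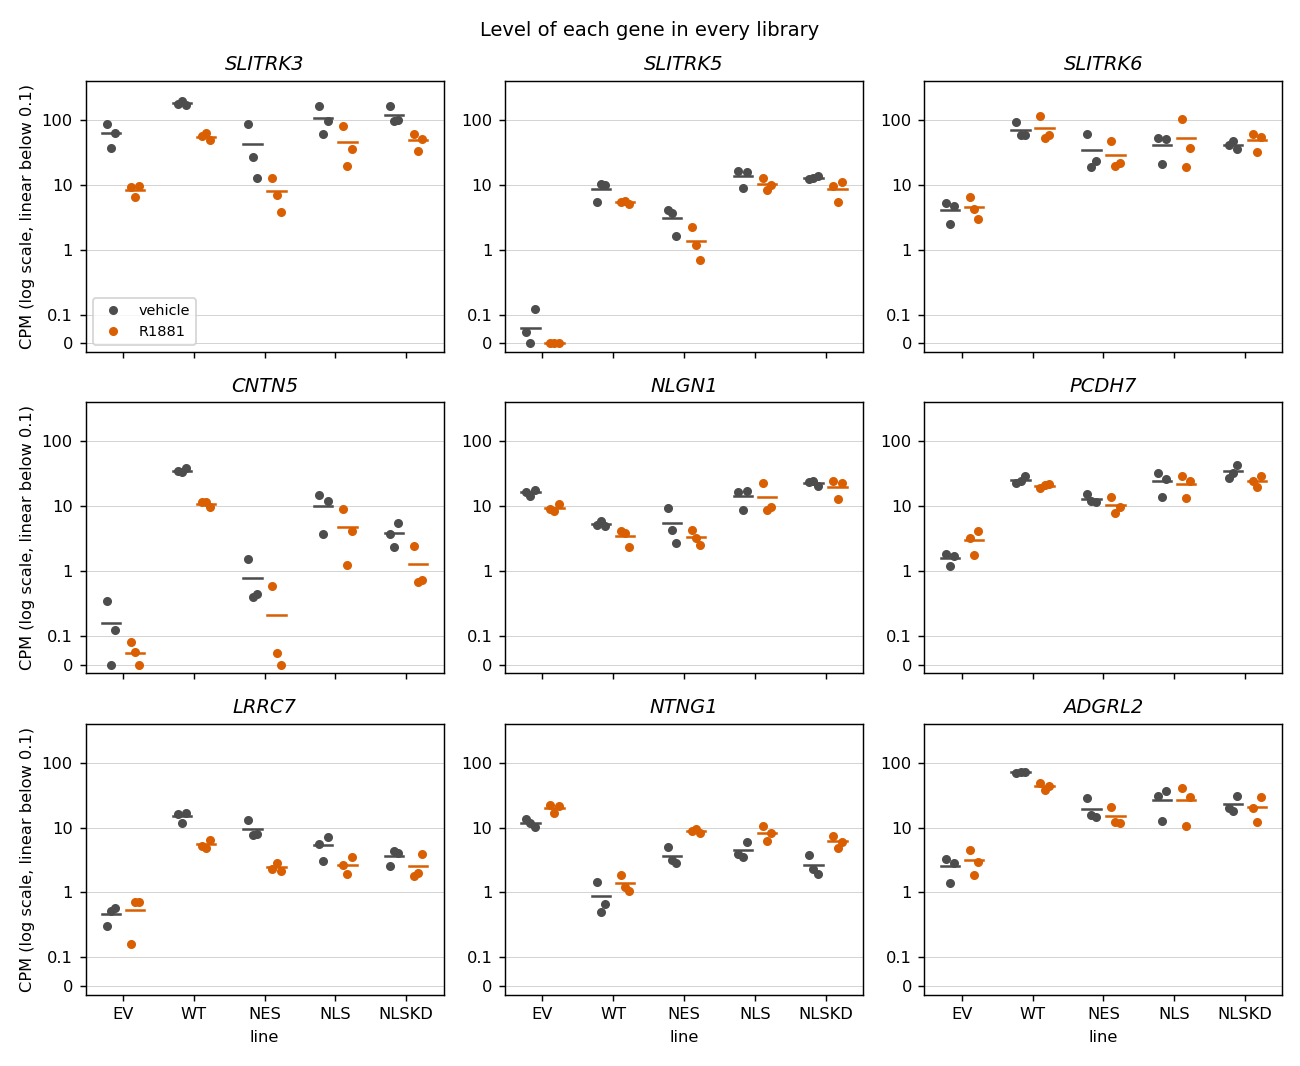
Level of each of the 9 genes in each of the 30 libraries, in CPM on a log scale that is linear below 0.1, for the 5 lines under vehicle (grey) and R1881 (orange); points are libraries and bars are means of 3. SLITRK5 sits at or near 0 in EV and between 0.695 and 16.3 CPM in the rescue lines, whereas NTNG1 is highest in EV (10.2 to 22.0 CPM).

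Set per length, SLITRK3 was the most abundant of the 9 under vehicle in each line, at 12.6 ± 5.004 FPKM in EV and 37.1 ± 2.66 FPKM in WT (SD, n = 3). In NES it overlapped SLITRK6 (8.58 ± 8.10 and 7.58 ± 4.99 FPKM). Under R1881 the leading gene in means was SLITRK6 in the 4 rescue lines, from 6.41 ± 3.32 FPKM in NES to 16.7 ± 7.99 FPKM in WT. Its libraries overlapped those of SLITRK3 in WT, NLS and NLSKD. In EV under R1881 the order changed, with NTNG1 at 2.21 ± 0.318 FPKM and SLITRK3 at 1.73 ± 0.367 FPKM, which overlap between libraries. In means the least abundant gene was SLITRK5 in EV, CNTN5 in NES, NTNG1 in WT and LRRC7 in NLS, each under both treatments. In NLSKD it was LRRC7 under vehicle (0.246 ± 0.0655 FPKM) and CNTN5 under R1881 (0.139 ± 0.109 FPKM). In WT the libraries of the least abundant gene were separate from those of the gene ranked next. In NLS they were separate under R1881 (LRRC7 0.128 to 0.237 FPKM, SLITRK5 0.391 to 0.617 FPKM) and overlapped under vehicle. In EV, NES and NLSKD they overlapped.

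SLITRK3 (ENSG00000121871, hg38 chromosome 3, 165186720 to 165197109, minus strand) encodes a postsynaptic leucine-rich repeat protein that binds the receptor phosphatase PTPRD and promotes inhibitory synapses. Under vehicle its level in replicates 1, 2 and 3 was 86.3, 37.2 and 63.4 CPM in EV and 179, 198 and 173 CPM in WT. It was 87.8, 26.5 and 12.6 CPM in NES, 164, 61.1 and 96.3 CPM in NLS, and 163, 96.5 and 99.4 CPM in NLSKD. WT lay above the other 4 lines without overlap, NLSKD lay above EV, and NES overlapped EV with 1 library just above the EV range and 2 below it. Under R1881 the values were 9.25, 6.44 and 9.77 CPM in EV, 56.0, 62.5 and 48.9 CPM in WT, and 12.9, 6.97 and 3.86 CPM in NES. NLS had 80.0, 19.6 and 35.9 CPM and NLSKD 61.4, 32.8 and 51.3 CPM. In means, WT, NLS and NLSKD stood 6.58-fold, 5.32-fold and 5.72-fold above EV under androgen (without NLS R1881 replicate 1 the NLS difference went from 2.41 to 1.71 on the log2 scale), while NES stood at 0.933 of EV with overlapping libraries. Under vehicle the NES difference went from -0.56 to -1.64 on the log2 scale without NES vehicle replicate 1.

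SLITRK5 (ENSG00000165300, chromosome 13, 87672615 to 87696272), a relative that also acts in trafficking of the BDNF receptor, was nearly silent in EV. The 3 EV libraries held 4 counts in all under vehicle (0.0385, 0 and 0.123 CPM) and 0 counts under R1881. Under vehicle it reached 5.39, 10.3 and 10.0 CPM in WT, 4.09, 3.67 and 1.62 CPM in NES, 16.3, 8.99 and 15.8 CPM in NLS, and 12.3, 12.96 and 13.6 CPM in NLSKD. NES was the lowest rescue line without overlap. The 2 nuclear forms had the highest means, with NLSKD above WT without overlap and NLS overlapping WT. Under R1881 it was 5.36, 5.73 and 5.09 CPM in WT, 2.22, 1.20 and 0.695 CPM in NES, 12.8, 8.42 and 10.1 CPM in NLS, and 9.60, 5.47 and 10.97 CPM in NLSKD. Set against a floor of 3 counts over the EV group, the lowest of the 3 libraries was at least 121-fold higher in WT, 16.4-fold in NES, 199-fold in NLS and 130-fold in NLSKD. Without NES R1881 replicate 1 the fitted log2 difference in NES under R1881 moved from 8.21 to 7.55, and without EV vehicle replicate 3, which holds 3 of the 4 EV counts, those of the 4 lines under vehicle rose (for WT from 7.20 to 8.45). Under R1881, mean MTOR in the rescue lines was highest in NES (4296 ± 1398 CPM, SD, n = 3), which had the least SLITRK5. It was lowest in NLS (1037 ± 362 CPM), which had the highest SLITRK5 mean. NLS and NLSKD overlapped both in MTOR (637 to 1340 and 727 to 1456 CPM) and in SLITRK5. A link between MTOR and SLITRK5 was not tested.

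SLITRK6 (ENSG00000184564, chromosome 13, 85792787 to 85806683, minus strand), a family member known for its part in innervation of the inner ear, shared its chromosome with SLITRK5. No gene between the 2 was tested, and 1866 kb separates them. SLITRK6 was between 2.45 and 6.50 CPM in the 6 EV libraries and between 18.9 and 114 CPM in the 24 rescue libraries. Its group means ran from 29.4 ± 15.3 CPM (NES, R1881) to 75.5 ± 33.8 CPM (WT, R1881), and neighbouring lines in that order overlapped under R1881. It differs from SLITRK5 in having WT as its highest line. Its log2 difference from EV fell from 3.04 to 2.38 in NES under vehicle without NES vehicle replicate 1, and from 3.55 to 2.60 in NLS under R1881 without NLS R1881 replicate 1. SLITRK1, SLITRK2 and SLITRK4, the other family members, did not pass the filter on low counts.

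ADGRL2 (ENSG00000117114, chromosome 1, 81306160 to 81992436) encodes latrophilin-2, an adhesion G protein-coupled receptor that binds teneurins and FLRT proteins. It ran from 1.41 to 4.56 CPM in EV. WT held 69.3, 72.0 and 72.7 CPM under vehicle and 48.3, 38.4 and 43.6 CPM under R1881, above the other rescue libraries except that NLS R1881 replicate 1 (40.2 CPM) reached into the WT range. The other 3 rescue lines lay between 10.4 and 40.2 CPM and overlapped each other. PCDH7 (ENSG00000169851, chromosome 4, 30720415 to 31146805), a delta-protocadherin of homophilic cell adhesion, was at 1.21 to 4.10 CPM in EV and 7.84 to 42.9 CPM in the rescue lines. Its highest group mean was in NLSKD under vehicle (34.5 ± 7.73 CPM) and its lowest rescue mean in NES under R1881 (10.4 ± 3.07 CPM). For PCDH7 the WT, NLS and NLSKD lines overlapped under both treatments, so that WT did not stand apart as it did for ADGRL2.

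CNTN5 (ENSG00000149972, chromosome 11, 99020953 to 100358885) encodes a contactin, an immunoglobulin-type adhesion protein held to the membrane by a lipid anchor. In EV it had 12 counts over 3 libraries under vehicle (0.346, 0 and 0.123 CPM) and 3 counts under R1881 (0.0808, 0.0438 and 0 CPM). WT had 34.6, 33.3 and 38.7 CPM under vehicle and 11.8, 11.5 and 9.69 CPM under R1881. NLS had 14.8, 3.78 and 12.2 CPM under vehicle and 8.999, 1.24 and 4.14 CPM under R1881. WT was above NLS without overlap under both treatments. NLSKD had 3.73, 2.32 and 5.55 CPM under vehicle and 2.44, 0.672 and 0.740 CPM under R1881, overlapping NLS each time. NES had 1.52, 0.397 and 0.446 CPM under vehicle, and under R1881 0.589, 0.0415 and 0 CPM, where 35 of the 36 counts of the group came from replicate 1. With so few EV counts the ratio of summed counts under R1881 is given with its exact 95% interval, which covers counting error only. That ratio to EV was 259 (88.2 to 1256) in WT, 133 (45.3 to 648) in NLS, 31.6 (10.5 to 156) in NLSKD and 7.997 (2.53 to 40.6) in NES. Without NES R1881 replicate 1 the fitted CNTN5 difference between NES and EV changed sign to -0.86 on the log2 scale. The differences of the 4 lines from EV also rested on EV vehicle replicate 1 and EV R1881 replicate 1, which hold most EV counts (for WT 7.76 became 9.06 and 7.87 became 8.70 without them). Leaving out replicate 1 lowered NES under vehicle from 2.30 to 1.41, NLS under R1881 from 6.69 to 5.85 and NLSKD under R1881 from 4.80 to 3.89.

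LRRC7 (ENSG00000033122, chromosome 1, 69568398 to 70151945) encodes densin, a leucine-rich repeat scaffold of the postsynaptic density that binds calmodulin-dependent kinase II. EV held 0.308, 0.523 and 0.574 CPM under vehicle and 0.162, 0.701 and 0.725 CPM under R1881. Under vehicle WT had 16.4, 11.9 and 16.7 CPM, NES 12.9, 7.77 and 7.91 CPM, NLS 5.69, 3.10 and 7.24 CPM, and NLSKD 2.53, 4.32 and 4.01 CPM. Here NES stood second, above NLS without overlap, which is the reverse of their order for SLITRK5. Under R1881 WT had 5.24, 4.87 and 6.52 CPM, NES 2.31, 2.86 and 2.13 CPM, NLS 2.62, 1.91 and 3.54 CPM, and NLSKD 1.78, 1.97 and 3.93 CPM. The 3 lines other than WT overlapped under androgen. The gene LRRC40 overlaps LRRC7 on the chromosome and was called in 0 of the 8 comparisons with EV (range -0.25 to 0.25 on the log2 scale), and whether the counting used strand is not given in the sources used here.

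NLGN1 (ENSG00000169760, chromosome 3, 173396284 to 174286644) encodes a neuroligin, the postsynaptic partner of neurexins at excitatory synapses. Under vehicle it was at 16.8, 14.5 and 17.8 CPM in EV, 5.16, 5.93 and 4.99 CPM in WT, and 9.29, 4.24 and 2.76 CPM in NES. NLS had 16.6, 8.81 and 17.2 CPM and NLSKD 23.7, 24.3 and 20.3 CPM. WT and NES were thus below EV (3.05-fold and 3.01-fold in means), NLS overlapped EV, and NLSKD was above it 1.39-fold without overlap. Under R1881 EV had 9.13, 8.33 and 11.01 CPM, WT 4.12, 3.88 and 2.32 CPM, NES 4.31, 3.19 and 2.56 CPM, NLS 22.8, 8.76 and 9.84 CPM, and NLSKD 24.6, 13.01 and 22.6 CPM. Under androgen WT and NES were again below EV and NLSKD above it (2.12-fold) without overlap. NLS overlapped EV again, with its mean at 1.46 of EV where it had been 0.869 under vehicle, and it overlapped NLSKD under R1881 only. Without NES vehicle replicate 1 the NES difference under vehicle went from -1.59 to -2.20 on the log2 scale.

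NTNG1 (ENSG00000162631, chromosome 1, 107140007 to 107483458) encodes netrin-G1, a lipid-anchored axonal protein that binds the postsynaptic ligand LRRC4C. It was the only 1 of the 9 that fell below EV in all 4 rescue lines. Under vehicle it had 13.5, 11.7 and 10.2 CPM in EV, 1.44, 0.507 and 0.667 CPM in WT, 5.09, 3.18 and 2.84 CPM in NES, 3.94, 3.55 and 6.09 CPM in NLS, and 3.85, 2.28 and 1.93 CPM in NLSKD. Under R1881 it had 22.0, 16.9 and 21.7 CPM in EV, 1.86, 1.21 and 1.07 CPM in WT, 8.97, 9.67 and 8.34 CPM in NES, 10.4, 6.27 and 8.16 CPM in NLS, and 7.49, 4.90 and 5.97 CPM in NLSKD. WT was the lowest line without overlap under both treatments, 13.5-fold and 14.6-fold below EV in means. EV and WT thus stood at opposite ends for NTNG1 and for ADGRL2, in reverse.

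As a description over the 10 group means, which share libraries and the EV baseline, the log2 CPM of the 9 genes correlated with Pearson r between -0.87 (LRRC7 and NTNG1) and 0.98 (SLITRK6 and ADGRL2). The tested protein-coding genes outside the group with the closest patterns over these 10 means were VIM for ADGRL2 (r = 0.992), TNN for SLITRK5 (0.982), RNPC3 for LRRC7 (0.983), MAGEA1 and TENM1 for NTNG1 (0.981 and 0.980), MEX3A for CNTN5 (0.980), MEST for SLITRK6 (0.980), BCHE for SLITRK3 (0.977), KCNQ5 for PCDH7 (0.973) and TPD52L1 for NLGN1 (0.968). VIM, which encodes the intermediate filament vimentin and was on the fixed list of mesenchymal markers, ran from 4.14 to 7.64 CPM in EV and from 10.6 to 28.4 CPM in the rescue lines. Among the other 9 mesenchymal markers FN1, the gene for fibronectin, had a median of 193 CPM (97.3 to 345) and made up most of the summed level, and COL1A1 had a median of 13.9 CPM, each above 0 in all libraries. COL1A2 had 0 counts in 30 libraries, CDH2 and DCN in 28 and THY1 in 24. The summed level of the 10 markers was 12.7 to 16.6 FPKM in EV and 13.4 to 25.3 FPKM in the rescue lines under vehicle, and 8.04 to 11.96 FPKM and 10.97 to 17.1 FPKM under R1881, and the part of these cells or this programme in the levels of the 9 genes was not tested.

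Libraries of a group differed in a way that ran across the 9 genes. The share of all tested genes at the same extreme in these libraries was not worked out, so the shifts may not be particular to the 9. NLS vehicle replicate 2 and NLS R1881 replicate 2 were each the lowest of their 3 libraries for 9 of the 9 genes. They also had the lowest MTOR of their groups (596 and 637 CPM) and a mitochondrial share of counts of 10.6% and 9.19%, where the range over all libraries was 3.90% to 11.7%. NES vehicle replicate 1 was the highest for 9 of 9 and had the highest MTOR of its group (7593 CPM) and a mitochondrial share of 4.20%. NLS R1881 replicate 1 was the highest for 8 of 9, and NLSKD R1881 replicate 2 the lowest for 8 of 9 with the lowest MTOR of its group (727 CPM). These measures did not always go with low values. NLSKD vehicle replicate 2 had the highest mitochondrial share of all (11.7%) and the lowest MTOR of its group (647 CPM), and was the lowest for 3 of 9 and the highest for 3. NES R1881 replicate 2, with the lowest MTOR of its group (3183 CPM), was the lowest for 2 of 9. The part of MTOR level or RNA quality in these shifts was not tested. With the 5 libraries over a 9% mitochondrial share left out, 5 genes again had every rescue library above every EV library. Leaving out libraries can hardly undo such a separation, so nothing is drawn from that count.

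**Figure D2:**
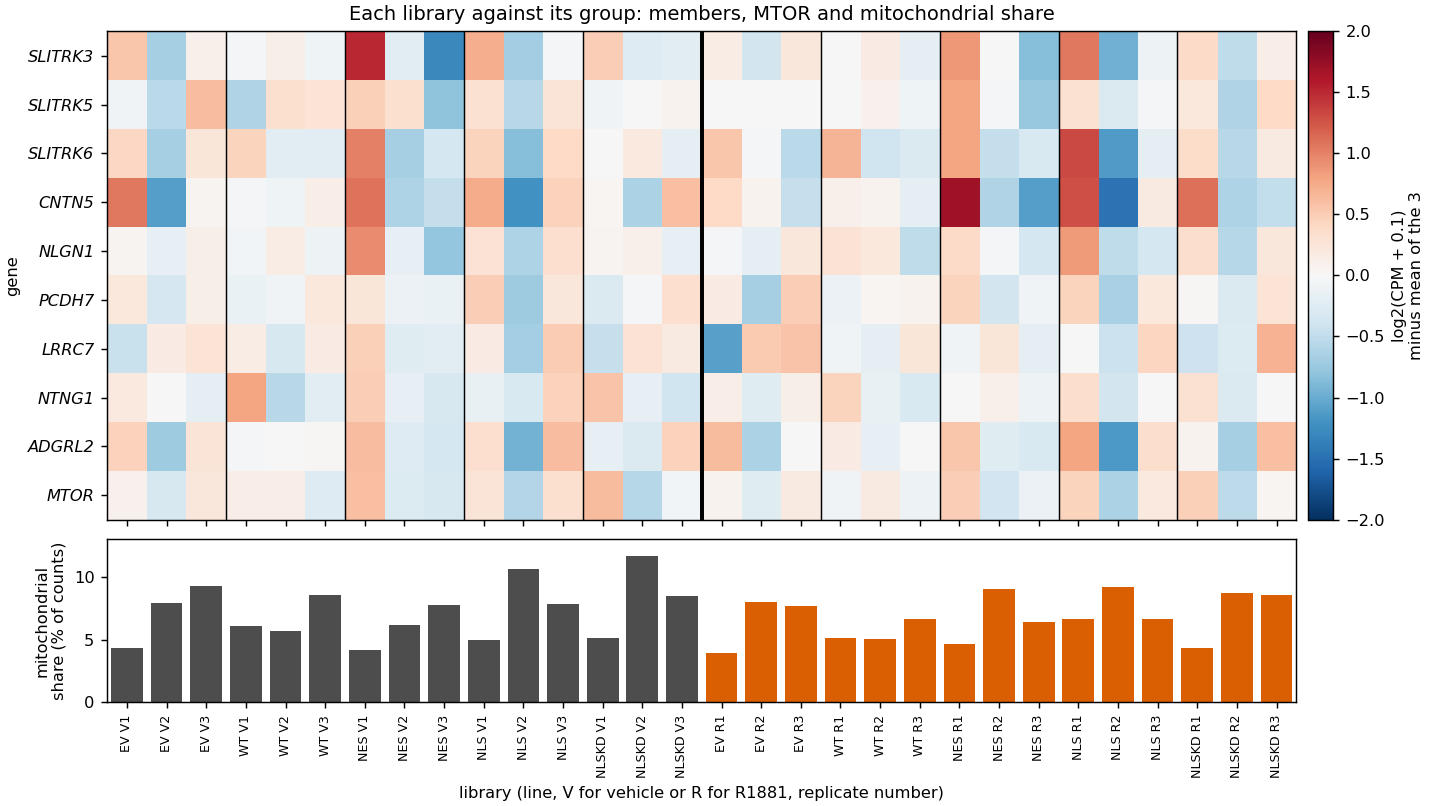
Upper panel, log2(CPM + 0.1) of each gene and of MTOR in each library minus the mean of its group of 3 (red above, blue below); lower panel, share of counts from mitochondrially encoded genes in percent (grey vehicle, orange R1881). The columns NLS V2 and NLS R2 are blue for the 9 genes and MTOR, and their mitochondrial shares are 10.6% and 9.19%.

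SLITRK5 and SLITRK6 were each other's nearest tested neighbour and were both higher than EV in 8 of 8 comparisons. The other nearest tested genes on the chromosomes of the 9 were mostly not called, and many lie far away (JRKL 2513 kb from CNTN5, IFI44 2642 kb from ADGRL2, and the neighbours of PCDH7 3453 and 2974 kb). Over all tested genes, 16.1% were called in at least 1 of the 8 comparisons. The 9 genes were picked on these comparisons, so a contrast with their neighbours was built in and nothing is drawn from it. The nearest tested neighbours of CNTN5, NLGN1, LRRC7 and NTNG1 (JRKL and AP001351.1, ECT2 and NAALADL2, DEPDC1-AS1 and SRSF11, PRMT6 and AC114491.1) were called in 0 of the 8 comparisons with EV. LINC01322, a long noncoding RNA 9.85 kb from SLITRK3, was called higher in 3 of 8. Both tested neighbours of PCDH7, the noncoding RNAs AC024132.3 and LINC02484, were called lower, in 3 and 4 of 8, although PCDH7 itself was higher in all 8. IFI44 beside ADGRL2 was called lower in 1 of 8.

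To show the regions next to SLITRK3 and NTNG1, which were called in the androgen results below, and next to SLITRK5, which was nearly silent in EV, the RefSeq promoter windows (assembly GRCh38.p14) were searched for the element TGTTCT and its reverse complement AGAACA, a short motif of androgen response elements, and for the full palindrome, which is AGAACA, then NNN, then TGTTCT, and contains the short one. A window that spans the start of the deposited gene model was found for 6 of the 9 genes, all but SLITRK6, NLGN1 and LRRC7. Only bases before both the RefSeq start and the deposited start are printed, 5′ to 3′ on the gene's strand and in lower case, with the motif in capitals. SLITRK3, whose transcript fell with androgen in EV and NES, has 1 TGTTCT that begins at base 172 of the 250 in chr3:165197110-165197359 (minus strand). NTNG1, whose transcript rose in NES and NLSKD, has no match in the 169 bases of chr1:107139838-107140006 (plus strand). SLITRK5, which was at 0 counts in EV under androgen, has none in chr13:87672339-87672588 (plus strand), and its window is 78.4% G or C against 46.4% for SLITRK3.
SLITRK3: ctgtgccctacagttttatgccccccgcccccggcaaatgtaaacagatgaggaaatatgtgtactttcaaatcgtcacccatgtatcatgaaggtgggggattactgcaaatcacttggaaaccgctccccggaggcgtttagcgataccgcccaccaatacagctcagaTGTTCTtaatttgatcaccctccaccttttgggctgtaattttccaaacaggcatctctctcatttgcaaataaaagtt
NTNG1: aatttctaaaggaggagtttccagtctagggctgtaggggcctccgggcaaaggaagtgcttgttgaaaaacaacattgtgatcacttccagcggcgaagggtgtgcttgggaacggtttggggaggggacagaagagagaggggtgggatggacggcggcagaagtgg
SLITRK5: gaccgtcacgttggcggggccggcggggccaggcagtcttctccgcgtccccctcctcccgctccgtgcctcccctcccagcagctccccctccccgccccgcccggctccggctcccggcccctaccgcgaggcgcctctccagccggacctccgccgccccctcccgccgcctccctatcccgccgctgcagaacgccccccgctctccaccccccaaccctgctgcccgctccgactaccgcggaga
The short motif on either strand occurs in 12.4% of the 35116 windows of 250 bases in the RefSeq table and the palindrome in 0.00285%, so a single match is a description of these letters and nothing is drawn from a window without one.

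The androgen response within each line is a contrast that the choice of the 9 genes did not use, although it shares libraries with the contrasts that were used. Under R1881, SLITRK3 fell in EV and NES, LRRC7 fell in WT and NES, and NTNG1 rose in NES and NLSKD. A gene was called at an adjusted p under 0.05 (edgeR's quasi-likelihood test on counts, Benjamini-Hochberg over 18296 genes). No gene was called higher and 1 lower in EV, where 4.55% of all tested genes were higher and 4.55% lower, and the same counts held in WT (3.47% and 3.01%). NES had 1 higher and 2 lower (4.21% and 4.04%). NLS had 0 of 9 called (2.78% and 1.66%) by edgeR and 0 by DESeq2, with 3 at an unadjusted p under 0.05, and NLSKD had 1 higher and 0 lower (2.48% and 1.6%). The median log2 change of the 9 genes was 0.15 with the empty vector, -0.67 for WT and -0.68 for NES, and it was -0.12 for NLS and -0.48 for NLSKD, against medians between -0.04 and 0.02 over all tested genes.

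SLITRK3 fell by 2.87 ± 0.57 on the log2 scale in EV (standard error; adjusted p = 0.000993, edgeR), from 62.3 ± 24.6 to 8.49 ± 1.79 CPM (SD, n = 3), with no overlap between the libraries. This was the largest called change of the 9 genes. In NES it fell by 2.40 ± 0.56 (adjusted p = 0.00522, edgeR), and the 6 libraries overlapped. Without NES vehicle replicate 1, the library at 87.8 CPM, the NES change was -1.31 with an adjusted p of 0.157, the highest over the alternatives (the lowest was 2.69e-20). The estimates were -1.72 ± 0.54 in WT (adjusted p = 0.0548), -1.24 ± 0.53 in NLS (0.284) and -1.30 ± 0.53 in NLSKD (0.270), none past the threshold in edgeR's test without a block. With the replicate number as a block SLITRK3 was called lower in WT and NLSKD (adjusted p = 0.00245 and 0.0365, edgeR; ranges over the alternatives are given below). In WT and NLSKD the vehicle and R1881 libraries did not overlap. Whether the lines differ in this response was not tested.

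LRRC7 fell by 1.97 ± 0.37 on the log2 scale in NES (adjusted p = 0.000704, edgeR), from 9.52 ± 2.91 to 2.43 ± 0.384 CPM, and by 1.44 ± 0.36 in WT (adjusted p = 0.0125), from 15.02 ± 2.68 to 5.54 ± 0.864 CPM (SD, n = 3). Neither pair of groups overlapped. The WT call was lost without WT R1881 replicate 1 or replicate 2 (adjusted p = 0.0506 and 0.0705, within a range of 3.63e-05 to 0.0705 over its alternatives). NLS and NLSKD had -0.98 ± 0.37 and -0.50 ± 0.38 (adjusted p = 0.179 and 0.822, edgeR). EV, where the gene was below 1 CPM, had 0.17 ± 0.48 (adjusted p = 0.926).

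NTNG1 moved the other way in each line, with estimates from 0.65 to 1.28 on the log2 scale. It rose by 1.28 ± 0.32 in NES (adjusted p = 0.00903, edgeR), from 3.70 ± 1.21 to 8.99 ± 0.666 CPM, and by 1.19 ± 0.32 in NLSKD (adjusted p = 0.0309), from 2.68 ± 1.02 to 6.12 ± 1.30 CPM (SD, n = 3). The NES call was lost without NES vehicle replicate 2 or 3 (adjusted p = 0.0538 and 0.0644; the lowest over its alternatives was 0.000327). The NLSKD call was lost without NLSKD vehicle replicate 2 or 3 or NLSKD R1881 replicate 1 or 3 (adjusted p from 0.0794 to 0.230; the lowest over its alternatives was 0.00203) and when the 5 libraries with a mitochondrial share over 9% were left out (0.171). EV had 0.78 ± 0.31 (adjusted p = 0.127), NLS 0.88 ± 0.31 (0.145) and WT 0.65 ± 0.36 (0.393), not past edgeR's threshold. The R1881 libraries lay above the vehicle libraries without overlap in 4 of the 5 lines, all but WT. NTNG1 was thus both lower in every rescue line than in EV and, where called, higher with androgen.

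CNTN5 and SLITRK5 had estimates below 0 in each line, and none was called in edgeR's test without a block. CNTN5 went from 35.5 ± 2.83 to 10.97 ± 1.12 CPM in WT (SD, n = 3), a log2 change of -1.69 ± 0.65 with an adjusted p of 0.141, and its libraries did not overlap. With the replicate block CNTN5 was called lower in WT and NLSKD, and SLITRK5 in NES, as given below. In NES the CNTN5 estimate was -1.51 ± 0.85, and without NES R1881 replicate 1 it became -4.96 (adjusted p = 0.0466, within a range of 0.00726 to 0.944), where 1 count was left in the R1881 group, so that value is no measure of size. SLITRK5 had -1.13 ± 0.40 in NES (adjusted p = 0.0918), which passed without NES vehicle replicate 3 or NES R1881 replicate 1 (0.0311 and 0.0208, within 0.0188 to 0.517). In EV both genes were at or near the floor of 3 counts, so no fold is given there. PCDH7 had 0.96 ± 0.34 in EV (adjusted p = 0.0783) and passed without EV R1881 replicate 2 (0.0266, within 0.0171 to 0.773), and its estimates in the rescue lines ran from -0.48 to -0.12. SLITRK6, NLGN1 and ADGRL2 were called in no line, with smallest adjusted p-values of 0.882, 0.229 and 0.443, estimates between -0.79 and 0.37, and 1 of 15 gene and line pairs at an unadjusted p under 0.05.

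**Figure D3:**
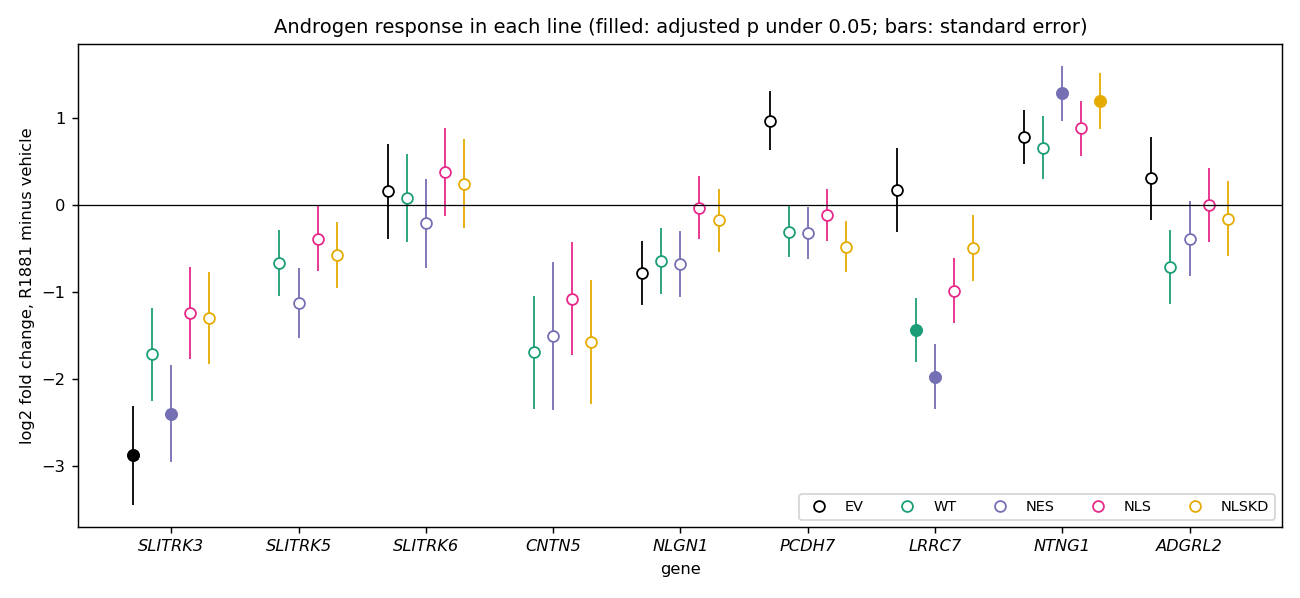
Log2 fold change from vehicle to R1881 with its standard error for each gene in the 5 lines (colours); filled points had an adjusted p under 0.05. SLITRK5 and CNTN5 in EV are left out because a group held 3 counts or fewer, SLITRK3, LRRC7 and NTNG1 hold the 6 filled points, and NTNG1 is above 0 in each line.

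Libraries with the same replicate number deviated together across genes in EV, WT, NES and NLSKD, so the fit with the replicate number as a block is given for these responses. The block is shared by all 30 libraries, NLS among them, where the numbers do not pair the samples. It is thus not a pairing within each line. This fit called 3 of the 9 genes in EV (13.5% of all tested genes called), adding PCDH7 and NTNG1 as higher (adjusted p = 0.0224 and 0.0233, edgeR). In WT it called 3 (10.4%), adding SLITRK3 and CNTN5 as lower (CNTN5 at 0.0118). In NES it called 4 (13.6%), adding SLITRK5 as lower (0.0499), and in NLSKD 3 (5.95%), adding SLITRK3 and CNTN5 as lower (CNTN5 at 0.0462). Over all alternatives the adjusted p ran from 0.00180 to 0.328 for NTNG1 in EV, from 3.69e-11 to 0.191 for SLITRK3 and from 2.50e-06 to 0.356 for CNTN5 in WT, and from 1.02e-06 to 0.653 for SLITRK3 and from 0.000149 to 0.747 for CNTN5 in NLSKD. No sign differed between the 2 fits for the genes called in either.

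The kinase-dead and the active nuclear form were compared directly. None of the 9 genes was called between NLSKD and NLS in edgeR's test, under vehicle (smallest adjusted p = 0.985, 0.0109% of all tested genes called) or under R1881 (all at 1, 0.00547% called), and 2 and 1 genes had an unadjusted p under 0.05. DESeq2 also called 0 under each treatment. These comparisons reuse libraries that the choice of the 9 genes used. CNTN5 had the lowest estimate each time, with overlapping libraries. It was -1.40 ± 0.66 under vehicle (95% interval -2.70 to -0.11) and -1.90 ± 0.71 under R1881 (-3.29 to -0.51). NTNG1 had -0.75 ± 0.32 under vehicle (-1.38 to -0.12). The intervals in this paragraph are not adjusted for the number of genes tested. For NLGN1 under vehicle, the NLSKD libraries (20.3 to 24.3 CPM) lay above those of NLS (8.81 to 17.2 CPM), with an estimate of 0.68 and a 95% interval of -0.03 to 1.39. For SLITRK5 the interval of the difference was -0.81 to 0.65 under vehicle and -1.0002 to 0.46 under R1881. For SLITRK3 it was -0.86 to 1.18 and -0.93 to 1.13, which leaves room for a change of 2-fold (1 on the log2 scale) to the higher side.

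Binding partners and relatives of the 9 gene products were followed as 85 further genes in 9 groups, of which 56 were tested. The list was drawn up with results of these data known and is no independent support for any direction. Genes of this list went both ways in each rescue line. Under vehicle 3 were called higher and 6 lower than EV in WT (2.3% and 4.41% of all tested genes, edgeR), 5 and 6 in NES (1.87% and 3.07%), 5 and 6 in NLS (1.59% and 2.98%), and 3 and 7 in NLSKD (1.47% and 2.54%). Under R1881 it was 5 and 7 in WT (3.66% and 4.83%), 3 and 7 in NES (3.27% and 3.69%), 6 and 7 in NLS (2.79% and 3.44%), and 6 and 6 in NLSKD (2.8% and 2.95%). The share of the 56 called was 5.36% to 10.7% higher and 10.7% to 12.5% lower. Their median log2 difference from EV lay between -0.10 and 0.16, and between -0.02 and 0.04 for all tested genes. A total of 23 of the 56 (41.1%) were called in at least 1 of the 8 comparisons, as were 16.1% of all tested genes.

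The receptor phosphatases and the neurexin ligands named next differed in whether they were called against EV. PTPRS and PTPRF belong to the family of receptor phosphatases that includes partners of SLITRK proteins, and were called in 0 of 8 comparisons with EV. Both were abundant, with PTPRS at 142 ± 31.9 CPM and PTPRF at 707 ± 135 CPM in EV under vehicle (SD, n = 3). PTPRD did not pass the filter. NLGN4X, a neuroligin relative of NLGN1, was called lower in 5 of 8, from 74.5 ± 19.2 CPM in EV to 13.4 ± 1.56 CPM in NLSKD under vehicle (log2 difference -2.47 ± 0.27, adjusted p = 1.30e-06). CLSTN2, a calsyntenin that binds neurexins, was lower in 8 of 8, with 856 counts in EV and 13 in WT under vehicle (11.4 ± 5.30 against 0.164 ± 0.150 CPM). With limma on log2(FPKM + 1) its calls under R1881 were lost in WT, NES and NLSKD (adjusted p = 0.170, 0.181 and 0.194, the highest over their alternatives, whose lowest were 1.84e-12, 4.85e-15 and 6.68e-14). The NLGN4X call in NLS under R1881 was lost in a fit of the 2 groups alone (adjusted p = 0.0555, range from 3.36e-07).

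CNTNAP4, a contactin-associated protein, was called lower in 8 of 8, with 8.76 ± 2.71 CPM in EV and 1.31 ± 0.0762 CPM in NLSKD under vehicle, and 0 counts in WT under R1881, where the lowest EV library was at least 110-fold above a floor of 3 counts over the WT group. CNTNAP2, its relative, went up in 8 of 8, by 1.03 to 1.51 on the log2 scale, and its call in NES under vehicle was lost with limma on log2(FPKM + 1) (adjusted p = 0.102, range from 2.38e-05). TENM1, a teneurin that binds latrophilins, was lower in 7 of 8 and had 0 counts in WT under vehicle against 2.15 ± 0.596 CPM in EV (SD, n = 3). With 3 counts over the WT group as the floor, the lowest EV library was at least 45.1-fold higher. CADM1, a homophilic adhesion protein, was lower in 6 of 8, HOMER2, a scaffold of glutamate receptors, in 7 of 8 (290 ± 18.4 CPM in EV and 150 ± 6.76 CPM in NLSKD under R1881; the NLS call under R1881 was lost in a fit of the 2 groups alone, adjusted p = 0.0663, range from 1.57e-14), and CAMK2B, a kinase subunit of the family that LRRC7 binds, in 3 of 8. CBLN2, a secreted neurexin ligand, was higher in 4 of 8, all in NES and NLS (50.5 ± 17.8 CPM in NES and 22.7 ± 3.06 CPM in EV under vehicle), and without NES vehicle replicate 1 the NES call under vehicle was lost (adjusted p = 0.0645, edgeR, within a range over its alternatives that had 0.0817 as its highest value).

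Counts of partner genes fell in several comparisons when 1 library was left out, which also makes a group smaller. The part of the smaller group in these falls was not tested. The 11 called in NES under vehicle became 6 or 7 without EV vehicle replicate 3 or NES vehicle replicate 1, 2 or 3, and the 11 in NLS under vehicle became 5 to 7 without EV vehicle replicate 1 or 3 or NLS vehicle replicate 1 or 3. The 10 in NLSKD under vehicle became 6 without EV vehicle replicate 3 or NLSKD vehicle replicate 1. Under R1881, the 12 in WT became 4 to 7 without any 1 of the 6 libraries compared (EV or WT R1881 replicates 1, 2 and 3), the 10 in NES became 5 or 6 without EV R1881 replicate 1 or 3 or NES R1881 replicate 2 or 3, and the 13 in NLS became 8 without EV R1881 replicate 1.

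**Figure D4:**
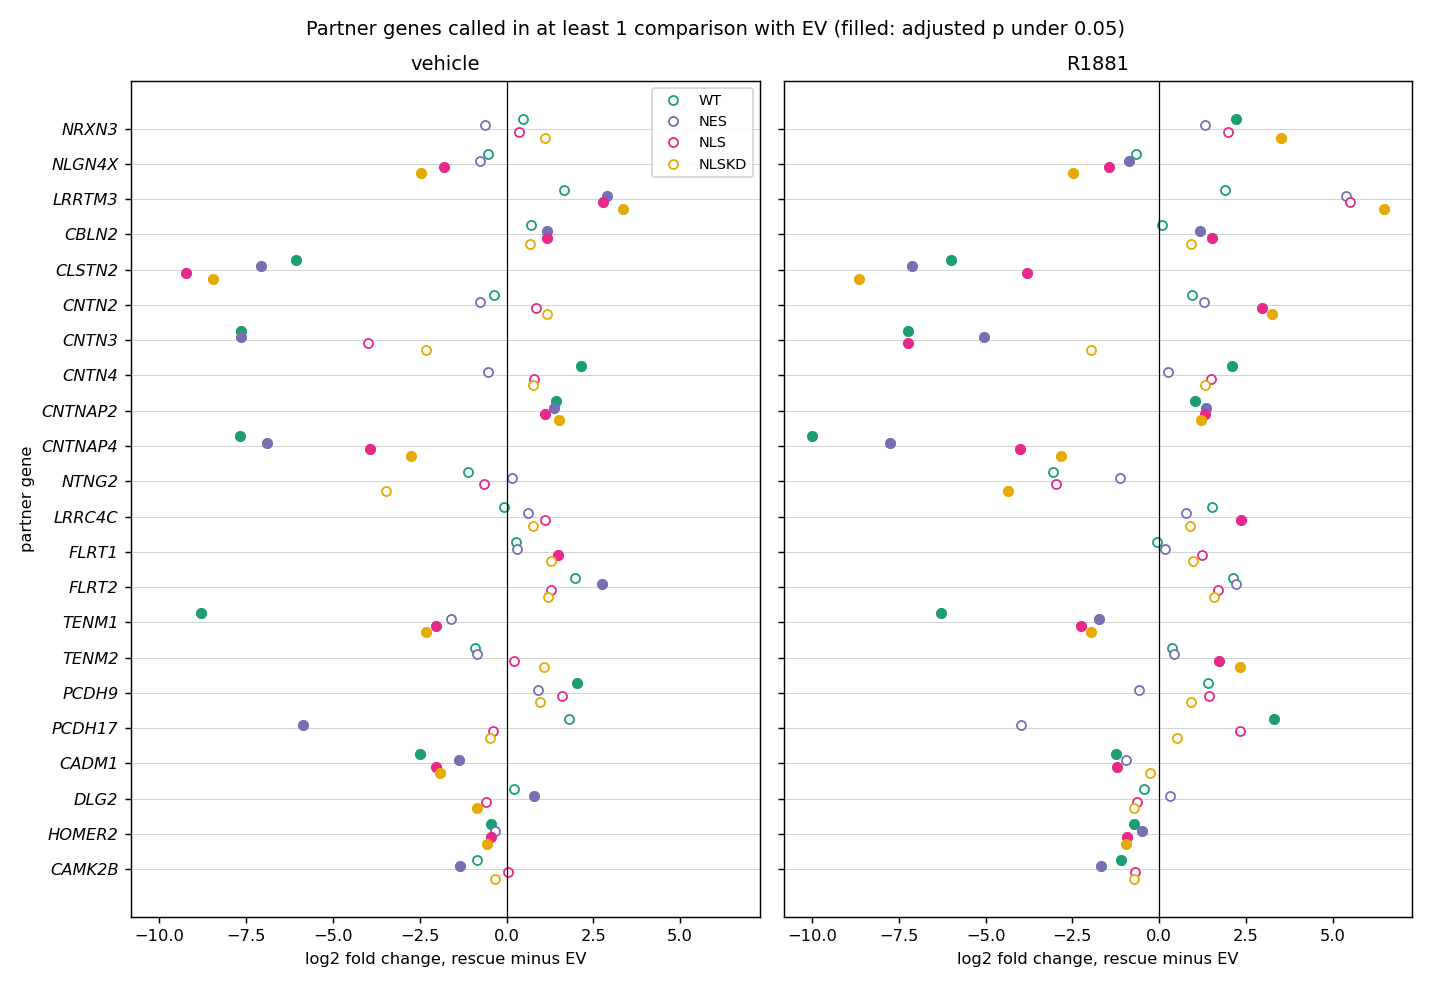
Log2 difference from EV of 22 of the 23 partner genes called in at least 1 comparison, under vehicle (left) and R1881 (right) for WT, NES, NLS and NLSKD (colours); filled points had an adjusted p under 0.05. CLSTN2 and CNTNAP4 are filled to the left of 0 and CNTNAP2 to the right in all 8 comparisons; points of genes with 0 counts in a group depend on the prior count and are not bounds.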

How the data were processed

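Total RNA of the 30 samples was sequenced as paired-end reads, per the labels' protocols. Per the file headers, the authors deposited, for each gene and library, the raw count of reads and its FPKM. HISAT2 2.0.5, featureCounts 1.5.0-p3 and hg38 are listed, without roles, in the submitters' processing notes; the strand setting is not given in the sources used here. Of 58735 genes, 58724 had the identifier, start and end of GENCODE release 29. The deposited FPKM gave the same denominator as the counts, to within 0.1%, in 100% of the genes checked per library.

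Counts were tested with edgeR 4.0.16 in R 4.3.3 (TMM, filterByExpr, glmQLFit and glmQLFTest, two-sided) in 1 fit over 30 libraries with a mean per group and Benjamini-Hochberg adjustment over the 18296 genes left, each comparison apart. The fit was tested on simulated data. The standard error of a fold is its size divided by the square root of F. CPM is given as mean ± SD of 3 libraries. DESeq2 1.42.0, limma 3.58.1 on log2(FPKM + 1) and log2(FPKM + 0.1), no filter, a replicate block, fits of the compared groups alone and left-out libraries were the alternatives. A floor of 3 counts over a group stands in for 0.

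Deviations from group means correlated above 0.1 in every same-numbered pair for the androgen responses of EV, WT, NES and NLSKD (lowest r 0.105, highest 0.516), NLSKD against NLS under vehicle (0.139 to 0.234), and NLS against EV under both treatments and NLSKD under R1881 (0.148 to 0.508); the pairing comes from the labels' numbers. The block is given beside a result there where it changed a call or moved a count by over 1.5 times. The members, gene lists and tests were chosen with earlier results of these data known. Named partner genes are, per comparison with EV, up to 4 called genes with the smallest adjusted p and at least 1 CPM in a group; like genes are the 2 with the highest r; neighbours are the nearest tested genes. PTPRS, PTPRF and the overlapping LRRC40 were named after their values were seen. Matrices held 0 columns of other samples. Some items, among them 1 partner gene left out of the plot, are not reported here.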

Additional observations from a re-analysis of the deposited data

How the results depend on the processing

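The number of the 9 genes called in the androgen response moved by more than 1.5 times under some settings. In EV the count of 1 became 2 with DESeq2, without the filter and with limma on log2(FPKM + 1), and 3 with the replicate block. In WT the count of 1 became 2 with DESeq2 and limma on log2(FPKM + 0.1), 3 without the filter, with the block and with limma on log2(FPKM + 1), and 4 with the 2 compared groups alone. In NES 3 became 5 without the filter. In NLS 0 became 2 without the filter and 2 with the block, whose numbers do not pair the samples there (lowest r -0.02, highest 0.64; 1 of 3 pairs correlated best with its own number) and which called SLITRK3 lower and NTNG1 higher. In NLSKD 1 became 3 without the filter and with the block and 0 when libraries with a high mitochondrial share were left out. NLSKD against NLS went from 0 to 1 (lower) without the filter under each treatment. Leaving out 1 library gave 1 to 2 calls in EV, 0 to 1 in WT, 2 to 5 in NES, 0 in NLS, 0 to 1 in NLSKD, and 0 between NLSKD and NLS. LRRC7 in EV, not called, ran from -0.13 to 0.61 with 1 library left out and changed sign without EV vehicle replicate 1 (-0.05) and without EV R1881 replicate 2 (-0.09) or 3 (-0.13). The cause of these shifts was not tested.

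Partner genes called in WT against EV under vehicle rose from 9 to 14 with the replicate block, where the numbers do not pair the samples (lowest r 0.04, highest 0.16). NES under vehicle went from 11 to 3 and NLS under R1881 from 13 to 4 in fits of the 2 groups alone. Without libraries of high mitochondrial share NLS under vehicle went from 11 to 7 and NLSKD from 10 to 6, and with limma on log2(FPKM + 1) NES under R1881 went from 10 to 6 and NLS from 13 to 7. Leaving out 1 library gave 6 to 10 (WT), 6 to 8 (NES), 5 to 9 (NLS) and 6 to 9 (NLSKD) under vehicle, and 4 to 7, 5 to 7, 8 to 12 and 8 to 12 under R1881. Where the numbers pair the samples, the block gave 13 in place of 11 (NLS under vehicle), 18 in place of 13 (NLS under R1881) and 16 in place of 12 (NLSKD under R1881), and 0 of the 9 genes between NLSKD and NLS under vehicle as without it. The block changed no call of a named partner gene. CPM without TMM factors, chosen after seeing the data, and the deposited FPKM gave the same count of 5 genes with every rescue library above every EV library. The EV counts of SLITRK5 (4 and 0) and CNTN5 (12 and 3) limit the precision of their folds.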

Other observations

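Among the 56 tested partner genes, 3 were called under R1881 in each of the 5 lines, EV included. The share of all tested genes called in each of the 5 lines was not worked out, so this count says nothing about the list. HOMER2, a scaffold of glutamate receptors, rose by 1.45 to 1.91 on the log2 scale, from 77.4 ± 9.83 to 290 ± 18.4 CPM in EV (SD, n = 3; adjusted p = 3.91e-11, edgeR). CBLN2, a secreted ligand of neurexins, fell in each line, from 22.7 ± 3.06 to 3.38 ± 0.228 CPM in EV (log2 change -2.75 ± 0.28, adjusted p = 1.12e-07, edgeR) and from 37.4 ± 3.69 to 3.58 ± 0.313 CPM in WT (-3.38 ± 0.29, adjusted p = 5.72e-09). LRRTM3, a postsynaptic neurexin ligand, also fell in each line and went from 29 counts to 0 in EV. These 3 genes were named after their values were seen.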
